A study of Rattus norvegicus with 6 samples.

Results

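Heat shock chaperones were examined in mammary tumors of female Sprague-Dawley rats by RNA sequencing. The set was chosen by gene symbol and held 10 genes: Hspa8, Hsph1, Hsp90aa1, Hsp90ab1, Hspb1, Dnaja1, Dnajb1 and Bag3 of the cytosol, and Hspd1 and Hspe1 of the mitochondrion. Of these, 9 were matched by symbol among 32545 genes of the table, 8 of the cytosol and 1 of the mitochondrion. Hspe1 was not analysed here, so Hspd1 alone stood for the mitochondrial chaperones. All animals had been injected intraperitoneally with N-methyl-N-nitrosourea (MNU), an alkylating carcinogen, at 50 mg/kg when 21 days old. Treatment began 1 week later, was given by gavage 5 times a week and lasted 10 weeks. The vehicle group (3 tumors) received 100 µL of corn oil and the DATS group (3 tumors) corn oil containing 50 mg/kg of diallyl trisulfide (DATS), a sulfur compound of garlic. The labels name no separate animals behind the tumors, so p-values measure only the spread between these samples, which may be technical. In whole tumors, a gene's level cannot tell fewer cells of a type from less RNA per cell.

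Heat shock proteins are chaperones that keep other proteins folded. HSP70 proteins bind exposed stretches of unfolded clients with the help of J-domain partners and nucleotide exchange factors, HSP90 proteins finish the folding of kinases and steroid receptors, and small heat shock proteins hold clients in a soluble state. In mitochondria the HSP60 chaperonin, encoded by Hspd1, forms a folding chamber that the HSP10 protein of Hspe1 closes. Heat, oxidants and other insults to proteins activate heat shock factor 1 (HSF1), which binds heat shock elements, arrays of inverted nGAAn units, and raises transcription of the inducible members, while Hspa8 and Hsp90ab1 are known for high basal expression.

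The promoters are shown because they display the elements through which HSF1 is known to act on cytosolic and mitochondrial chaperones alike. RefSeq (rat assembly GRCr8) held promoter sequences for 9 of the 10 genes, all but Hsp90aa1, and the 250 bases before the annotated start were searched on both strands. A pair of inverted units was written as GAANNTTC or TTCNNGAA, and 3 units as GAANNTTCNNGAA or TTCNNGAANNTTC, the longer motif containing the shorter. Pairs were found in 8 of these 9 promoters, against 13.5% of the 33469 RefSeq promoters of the same length, and runs of 3 units in 4 of the 9 (Hspa8, Hsph1, Hspd1 and Hspe1), against 0.663% of all. The Hspd1 and Hspe1 windows face each other on opposite strands of chromosome 9 and overlap by 211 bases, and the 3 pair matches of each are the same 18 bases of DNA. Below, 5′ to 3′ on the strand of the gene, capitals mark bases under a pair or run. The windows are chr9:64084077-64084326 (+ strand) for Hspe1, chr8:50080264-50080513 (+ strand) for Hspa8, chr12:10427118-10427367 (+ strand) for Hsph1, chr12:26432302-26432551 (- strand) for Hspb1, chr19:41431142-41431391 (- strand) for Dnajb1 and chr9:22930173-22930422 (+ strand) for Hsp90ab1, all in GRCr8. Hsp90ab1 is shown as the member with no match in this window.
Hspe1: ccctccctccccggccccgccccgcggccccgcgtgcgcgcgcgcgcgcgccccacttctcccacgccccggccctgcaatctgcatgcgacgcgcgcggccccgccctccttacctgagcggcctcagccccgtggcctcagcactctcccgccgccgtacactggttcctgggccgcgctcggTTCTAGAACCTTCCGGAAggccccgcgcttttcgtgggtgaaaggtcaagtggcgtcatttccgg
Hspa8: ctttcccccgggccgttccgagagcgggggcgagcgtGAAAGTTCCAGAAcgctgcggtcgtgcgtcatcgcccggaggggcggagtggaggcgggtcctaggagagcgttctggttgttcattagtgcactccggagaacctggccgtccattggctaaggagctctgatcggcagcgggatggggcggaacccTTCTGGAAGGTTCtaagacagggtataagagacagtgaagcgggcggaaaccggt
Hsph1: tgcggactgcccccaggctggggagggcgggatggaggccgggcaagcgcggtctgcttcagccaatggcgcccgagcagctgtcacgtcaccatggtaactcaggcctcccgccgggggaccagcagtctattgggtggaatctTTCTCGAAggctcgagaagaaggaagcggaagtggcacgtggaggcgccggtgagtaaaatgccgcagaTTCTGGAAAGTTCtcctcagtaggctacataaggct
Hspb1: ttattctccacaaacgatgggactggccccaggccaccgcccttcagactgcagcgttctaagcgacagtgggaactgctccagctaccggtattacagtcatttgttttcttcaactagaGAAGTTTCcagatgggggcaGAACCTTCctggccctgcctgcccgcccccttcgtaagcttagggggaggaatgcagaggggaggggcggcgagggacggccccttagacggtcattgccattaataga
Dnajb1: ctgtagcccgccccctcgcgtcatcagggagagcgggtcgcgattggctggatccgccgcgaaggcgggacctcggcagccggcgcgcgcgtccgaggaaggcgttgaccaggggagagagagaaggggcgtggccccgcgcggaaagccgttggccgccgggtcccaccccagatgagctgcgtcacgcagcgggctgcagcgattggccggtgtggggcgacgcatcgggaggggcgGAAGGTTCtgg
Hsp90ab1: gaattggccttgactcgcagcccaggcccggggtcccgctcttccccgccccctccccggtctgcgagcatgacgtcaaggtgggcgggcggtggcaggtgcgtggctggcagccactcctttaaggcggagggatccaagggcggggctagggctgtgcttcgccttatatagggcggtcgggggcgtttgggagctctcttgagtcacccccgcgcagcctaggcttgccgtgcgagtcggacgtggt

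Levels are in FPKM, the authors' unit, in which fragment counts are divided by gene length and by a factor per tumor, so that genes can be compared per length. This factor matched the median ratio of recovered reads between tumors, not their total. FPKM totals were 566304 to 656017 in vehicle and 662528 to 710096 in DATS tumors. Recovered depth was 13531218 to 16867158 reads per tumor. The tumors carried epithelial RNA throughout, with Epcam, an epithelial surface marker, at 463 to 704 FPKM. Vehicle tumor 1 stood apart by skeletal muscle RNA: all 12 muscle markers with a row were highest in it, and they summed to 1855 FPKM there against 43.9 to 70.6 FPKM elsewhere. Vehicle tumor 2 was highest for all 10 leukocyte markers (summed 726 FPKM, against 175 to 356 FPKM in the other tumors). In DATS tumor 2, 10 of 13 immediate early genes were highest (summed 1420 FPKM, against 582 to 761 FPKM elsewhere). By group, 9 of 9 luminal epithelial markers (median log2 difference 0.46), 10 of 10 smooth muscle and myoepithelial markers (0.83) and 13 of 13 immediate early genes (0.50) were higher in DATS tumors, while 12 of 12 skeletal muscle markers, 7 of 8 fibroblast and matrix markers (-0.28) and 7 of 9 leukocyte markers (-0.20) were lower and 3 of 3 adipocyte markers (0.71) higher, with none called. Without DATS tumor 2 the immediate early genes were 7 higher and 5 lower of 12, and without vehicle tumor 1 the muscle markers were 2 higher and 4 lower of 6. The leukocyte markers were 6 higher and 3 lower of 9 without vehicle tumor 2 and 5 and 4 without DATS tumor 1, and the adipocyte markers 1 higher and 2 lower of 3 without DATS tumor 1. The part of these markers in the chaperone values was not tested. Each difference given below subtracts vehicle from DATS in log2(FPKM + 1) units, and limma tested the 13631 genes averaging at least 1 FPKM.

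Tumors given DATS showed no called change in any chaperone of the set. At a Benjamini-Hochberg adjusted p under 0.05, limma called 0 of the 8 members tested and 0 of all 13631 genes (percent called 0; lowest adjusted p over all genes 0.819), and limma-voom on recovered reads also called 0. At an unadjusted p under 0.05 there was 1 member, Hspa8, against 797 genes (5.85%) by limma and 704 by limma-voom. Of the 8 members, 3 were higher and 5 lower in DATS tumors, with a median of -0.05, beside a median of 0.00 over all genes tested. With equal totals 1 was higher and 7 lower (median -0.23, beside -0.16 over all genes). With quantile normalization the split was also 1 and 7 (median -0.21, beside -0.0085 over all genes). Leaving out 1 tumor moved the split between 1 higher and 7 lower (without vehicle tumor 2 or DATS tumor 2) and 5 higher and 3 lower (without vehicle tumor 3). Hsp90aa1 lay below the filter. The 95% intervals reached from -1.28 at their lowest (Hspb1) to 0.85 at their highest (Bag3). The precision differed between members, with SEs of the difference from 0.16 (Hspa8) to 0.41 (Hspb1).

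**Figure D1:**
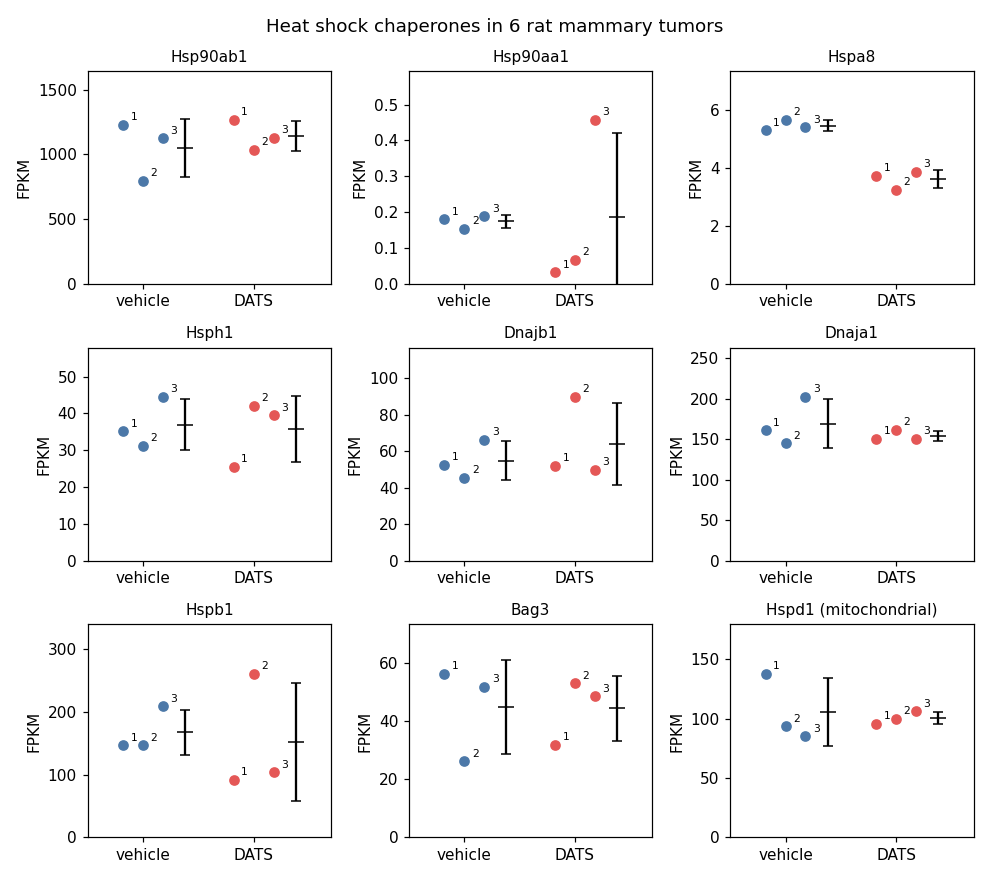
FPKM of the 9 chaperones in each tumor (blue, vehicle; red, DATS; small digits give the replicate number), with the group mean and SD in black and every axis starting at 0, which hides the lower end of the SD bar of Hsp90aa1 in DATS tumors. Hspa8 is the member whose groups do not overlap, at 3.25 to 3.88 FPKM in DATS and 5.31 to 5.66 FPKM in vehicle tumors.

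The rows of the HSP90 pair lay furthest apart in level, but the share of Hsp90aa1 RNA that its row represents was not tested. Hsp90ab1, the constitutive cytosolic HSP90, was the most abundant member, at 1229, 796 and 1122 FPKM in vehicle tumors 1, 2 and 3 and at 1266, 1036 and 1126 FPKM in DATS tumors 1, 2 and 3. Vehicle tumor 2 was the low one and the groups overlapped. The log2 difference was 0.14 ± 0.23 (SE; limma adjusted p = 0.927), and it turned negative with equal totals and with quantile normalization. Hsp90aa1, the stress-inducible HSP90, was listed at 0.180, 0.154 and 0.188 FPKM in vehicle and at 0.0325, 0.0673 and 0.457 FPKM in DATS tumors. These values rested on 1 to 14 recovered reads per tumor and give no comparison.

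The HSP70 branch held the member with the clearest separation. Hspa8, the constitutive cytosolic HSC70 that carries most housekeeping folding, was at 5.31, 5.66 and 5.41 FPKM in vehicle tumors and at 3.72, 3.25 and 3.88 FPKM in DATS tumors. Each DATS tumor lay below each vehicle tumor, a pattern that held for 5.50% of all genes tested in this direction and 6.72% in the other. No other member had groups that did not overlap. The log2 difference was -0.49 ± 0.16 (SE; 95% interval -0.87 to -0.10; limma unadjusted p = 0.0204, adjusted p = 0.819), so the difference did not pass the correction. It kept its sign in every alternative run, between -0.63 and -0.41, although the other filter and the replicate block could not change it. The row rested on 92 to 196 reads per tumor, and Hsp90ab1 was 141 to 340 times higher per length in the same tumors. RefSeq lists 33 pseudogenes named after Hspa8, 16 after Hsp90aa1, 23 after Hsp90ab1, 20 after Hspd1 and 4 after Dnaja1. No source used here gives the handling of reads shared with such copies. The rows of these genes are therefore uncertain, and the share of Hspa8 RNA that its row represents was not tested.

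Hsph1, an HSP110 protein that serves as nucleotide exchange factor of HSP70, was at 35.2, 31.3 and 44.5 FPKM in vehicle and at 25.5, 42.1 and 39.6 FPKM in DATS tumors. The groups overlapped, with a log2 difference of -0.07 ± 0.24 (SE; limma adjusted p = 0.976). Bag3, a co-chaperone that links HSP70 and small heat shock proteins to selective autophagy, was at 56.5, 26.2 and 52.0 FPKM in vehicle and at 31.9, 53.2 and 48.6 FPKM in DATS tumors. Its low tumors were vehicle tumor 2 and DATS tumor 1, 1 in each group. Its log2 difference was 0.03 ± 0.34 (SE), whereas its mean FPKM was marginally lower in DATS (44.6 ± 11.2 against 44.9 ± 16.3, SD, n = 3), and the sign also turned with equal totals and with quantile normalization.

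Both J-domain partners of HSP70 in the set had overlapping groups. Dnaja1, a farnesylated J-domain protein of the cytosol, was at 161, 145 and 202 FPKM in vehicle and at 151, 162 and 150 FPKM in DATS tumors, with vehicle tumor 3 above the rest. Its highest value was 1.40 times its lowest, the narrowest range of the set. Dnajb1 (HSP40), the inducible J-domain partner, was at 52.4, 45.3 and 66.3 FPKM in vehicle and at 52.0, 89.8 and 49.8 FPKM in DATS tumors, and DATS tumor 2 was the high one. The ratio of Dnajb1 to Dnaja1 was 0.555 in DATS tumor 2 and 0.313 to 0.345 in the other tumors. Log2 differences were -0.12 ± 0.17 for Dnaja1 and 0.18 ± 0.27 for Dnajb1 (SE; limma adjusted p = 0.917 and 0.920). Without DATS tumor 2 the difference of Dnajb1 was -0.08.

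Hspb1 (HSP27 in humans), a small heat shock protein that holds unfolded clients and stabilises actin, varied most among the members kept for the test. It was at 147, 147 and 210 FPKM in vehicle and at 91.6, 261 and 104 FPKM in DATS tumors, a 2.85-fold range. DATS tumors included both the highest and the lowest value. The log2 difference was -0.28 ± 0.41 (SE; limma adjusted p = 0.920), and it was -0.75 without DATS tumor 2 and -0.0021 without DATS tumor 1.

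Hspd1, the mitochondrial HSP60, was at 138, 93.7 and 85.2 FPKM in vehicle and at 95.7, 100.1 and 106 FPKM in DATS tumors. Vehicle tumor 1, the tumor with skeletal muscle RNA, was the high one, and the 3 DATS tumors lay close together (101 ± 5.34 FPKM against 106 ± 28.4 FPKM, SD, n = 3). The log2 difference was -0.04 ± 0.21 (SE; limma adjusted p = 0.984), and it was 0.17 without vehicle tumor 1. The part of muscle RNA in the value of vehicle tumor 1 was not tested.

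In order of mean FPKM over the 6 tumors, Hsp90ab1 (1096 ± 168, SD, n = 6) stood above Dnaja1 (162 ± 21.0), Hspb1 (160 ± 64.6), Hspd1 (103 ± 18.5), Dnajb1 (59.3 ± 16.5), Bag3 (44.7 ± 12.5), Hsph1 (36.4 ± 7.14), Hspa8 (4.54 ± 1.04) and Hsp90aa1 (0.180 ± 0.1497). The rows of Hspa8, Hsp90aa1, Hsp90ab1, Hspd1 and Dnaja1 are uncertain, as given above, so this is an order of rows and not of known RNA levels. The ranges of neighbours did not overlap below Hsp90ab1, between Hsph1 and Hspa8 and between Hspa8 and Hsp90aa1. From Dnaja1 down to Hsph1 each gene overlapped its neighbour, although Hspd1 exceeded Dnajb1 within each of the 6 tumors.

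Cytosolic and mitochondrial chaperones were compared within each tumor as the mean log2(FPKM + 1) of the 8 cytosolic genes minus that of Hspd1. This is a description with no test. The contrast was -1.56, -1.28 and -0.71 in vehicle tumors 1, 2 and 3 and -1.36, -1.0005 and -1.30 in DATS tumors 1, 2 and 3. The group means were -1.18 ± 0.43 and -1.22 ± 0.19 (SD, n = 3), a difference of -0.04 that is smaller than either SD, and the DATS values lay inside the vehicle range. The cytosolic mean was highest in vehicle tumor 3, by 0.24 above the mean of the 6 tumors, where Hspd1 was lowest, by -0.26. It was also above average in DATS tumor 2 (0.18) with Hspd1 at -0.03, whereas vehicle tumor 1 was highest for Hspd1 (0.43) with the cytosolic mean at 0.07. Vehicle tumor 2 and DATS tumor 1 were below average for both. With Hspa8 and Hsp90aa1 left out of the cytosolic mean, a choice made after seeing their low values, the difference between the groups was 0.02. The contrast itself was then -0.19, -0.0072 and 0.71 in vehicle tumors 1, 2 and 3 and 0.0025, 0.52 and 0.04 in DATS tumors 1, 2 and 3. The low level of the contrast over 8 genes thus rested largely on the uncertain rows of Hspa8 and Hsp90aa1. The rows of Hspd1, Hsp90ab1 and Dnaja1, which remain in the contrast without those genes, are uncertain as well.

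**Figure D2:**
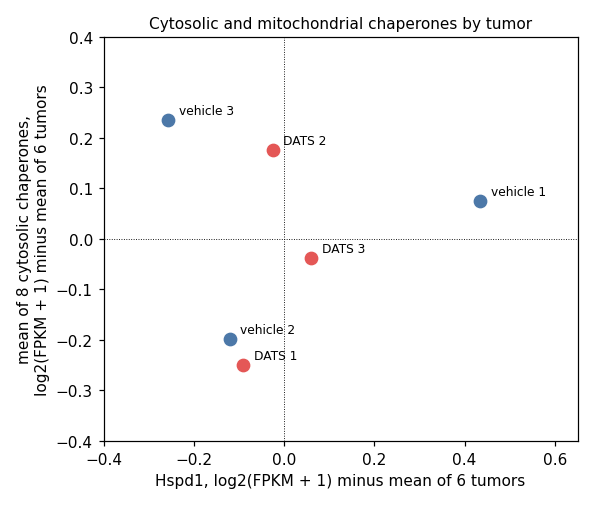
Mean of the 8 cytosolic chaperones (vertical) against Hspd1 (horizontal), each as log2(FPKM + 1) minus its mean over the 6 tumors (blue, vehicle; red, DATS). The 3 DATS tumors lie within 0.10 of the Hspd1 average but spread from -0.25 to 0.18 on the cytosolic axis, and vehicle tumor 1 is far to the right at 0.43.

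The highest and lowest values of the members fell in different tumors of both groups. Vehicle tumor 3 was highest for Hsph1 and Dnaja1, DATS tumor 2 for Hspb1 and Dnajb1, and vehicle tumor 1 for Bag3 and Hspd1. Vehicle tumor 2 was lowest for 4 of the 9 members (Hsp90ab1, Dnaja1, Dnajb1 and Bag3) and DATS tumor 1 for 3 (Hsp90aa1, Hspb1 and Hsph1). The inducible HSP70 gene Hspa1b was highest in DATS tumor 2 and next in vehicle tumor 3, with 10.6, 15.1 and 30.5 FPKM in vehicle and 12.6, 120 and 22.6 FPKM in DATS tumors. Its log2 difference of 0.91 ± 0.83 (SE; limma adjusted p = 0.868) rested on DATS tumor 2, and it was -0.01 without that tumor. Hspa1a, its near-identical copy, was at 0.162, 0.226 and 0.230 FPKM in vehicle and 0.238, 1.27 and 0.683 FPKM in DATS tumors, on 6 to 36 reads, and both rows are uncertain because the counting could split their reads. Immediate early genes were 1.25 above their mean on the log2 scale in DATS tumor 2, beside the high Hspa1b, Hspb1 and Dnajb1, and -0.30 in vehicle tumor 3. Their part in these values was not tested.

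**Figure D3:**
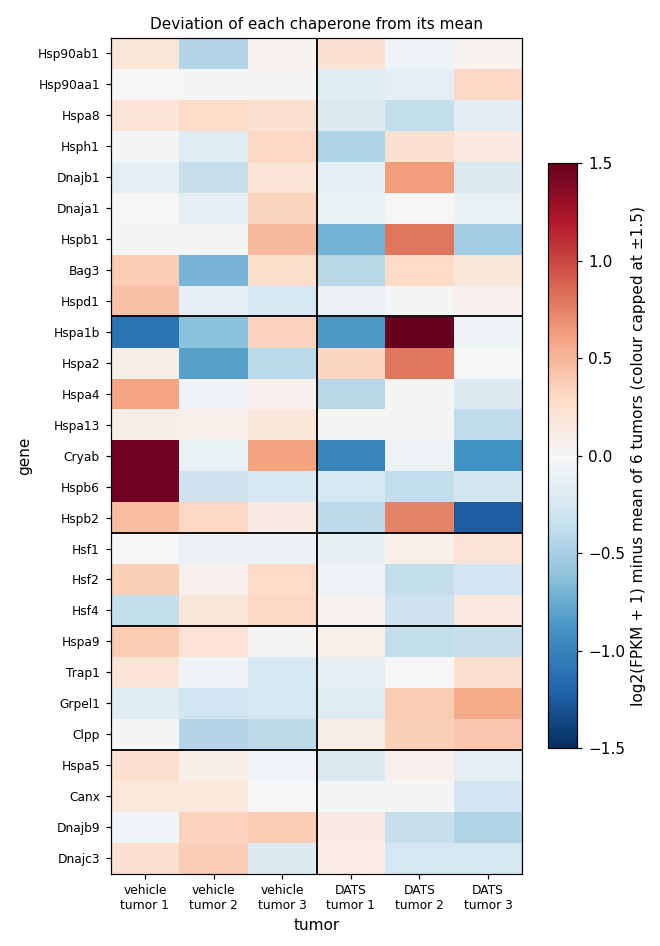
Deviation of each gene from its own mean over the 6 tumors, in log2(FPKM + 1), for the 9 members (top block), other HSP70 and small heat shock genes, heat shock factors, mitochondrial and endoplasmic reticulum (ER) chaperones. Red is above and blue below the mean, and the colour is capped at 1.5 in either direction. Hspa1b, Hspb1 and Dnajb1 share a red cell in DATS tumor 2, where Hspa1b is past the cap, while Cryab and Hspb6 are highest in vehicle tumor 1.

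The other genes of the chaperone network gave no call either. Of 72 genes in 8 lists, 67 were tested, 36 were higher and 31 lower in DATS tumors, with a median of 0.02, and limma called 0. The split depended on scaling. With equal totals (median over all genes -0.16), 15 were higher and 52 lower (median -0.16). With quantile normalization (median over all genes -0.0085), 24 were higher and 43 lower (median -0.11). At an unadjusted p under 0.05 there were 4 higher (against 3.74% of all genes) and 2 lower (2.11%). Groups did not overlap for 5 of the 67 that were higher (Dnajb2, Hspbp1, Cdc37, Cct4 and Clpp), against 6.72% of all genes. They did not overlap for 3 that were lower (Hsf2, Hspa13 and Canx), against 5.50% of all genes. Among the heat shock factors, Hsf1, the master regulator, was at 24.0 ± 0.956 FPKM in vehicle and 26.2 ± 2.92 in DATS tumors (SD, n = 3; log2 difference 0.11). Hsf2, a partner that forms mixed trimers with HSF1, was at 10.97, 8.81 and 10.5 FPKM in vehicle and at 7.90, 6.32 and 6.67 FPKM in DATS tumors, with no overlap (log2 difference -0.48 ± 0.16, SE; limma adjusted p = 0.819). Hsf4 had a log2 difference of -0.09.

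Small heat shock genes beside Hspb1 were lower in DATS tumors for 5 of 5 tested (median -0.61), none was called, and without vehicle tumor 1 the median was -0.075 with 4 of 5 lower. Cryab, alpha-B crystallin, a chaperone of muscle and lens also found in basal-like breast cells, was at 84.2, 27.7 and 46.0 FPKM in vehicle and at 14.6, 28.2 and 15.5 FPKM in DATS tumors (log2 difference -1.31 ± 0.44, SE; limma adjusted p = 0.819). Vehicle tumor 1 was highest, and without it the difference was -0.91. Hspb6, a small heat shock protein of muscle, was at 43.1 FPKM in vehicle tumor 1 and at 11.4 to 12.5 FPKM elsewhere, and its difference of -0.61 was -0.03 without that tumor. Hspb7, also of muscle, had -0.77, and 0.18 without that tumor. Hspb2 had -0.59 on 16 to 88 reads per tumor. Muscle markers moved with vehicle tumor 1, as given above, and their part in these genes was not tested.

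Other HSP70 and HSP110 genes were split, 2 higher and 3 lower of 5 tested (median -0.09). The list held Hspa13, an HSP70 relative of the ER rather than the cytosol, and without it 2 were higher and 2 lower of 4 (median 0.33), a choice made after seeing the data. Hspa2, a testis-enriched HSP70, was at 6.67 ± 2.43 FPKM in vehicle and 11.8 ± 3.58 in DATS tumors (SD, n = 3; log2 difference 0.75 ± 0.30, SE; limma adjusted p = 0.819), and the groups overlapped. Hspa4, a cytosolic HSP110 relative, had a log2 difference of -0.41, and Hspa13 had -0.23. J-domain genes were 5 higher and 5 lower of 10 (median 0.00; -0.17 with equal totals). Dnajb2 (HSJ1), which directs HSP70 clients towards degradation, was at 31.5, 26.3 and 35.3 FPKM in vehicle and at 36.8, 50.0 and 56.0 FPKM in DATS tumors, with the DATS tumors above (log2 difference 0.59 ± 0.20, SE; limma adjusted p = 0.819). Dnajc7 and Dnajb4 had 0.22 and -0.31.

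Cochaperones of HSP70 and HSP90 were higher in DATS tumors for 11 of 15 tested (median 0.10), but for 6 of 15 with equal totals (median -0.07), and none was called. Hspbp1, a nucleotide exchange factor of HSP70, was at 45.0 ± 4.25 FPKM in vehicle and 58.8 ± 7.50 in DATS tumors (SD, n = 3), and Cdc37, which loads kinases onto HSP90, at 83.5 ± 14.4 and 107 ± 3.48 FPKM. Both had groups that did not overlap, with log2 differences of 0.38 and 0.37, and Chordc1, an HSP90 partner, had -0.32. Subunits of the CCT chaperonin, which folds actin and tubulin, were 4 higher and 4 lower of 8 (median 0.04; -0.135 with equal totals and -0.12 with quantile normalization), with Cct7, Cct4 and Tcp1 at 0.32, 0.21 and -0.21.

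Beside Hspd1, the mitochondrial chaperone and protease list had 9 of 10 genes higher in DATS tumors (median 0.11), but 3 of 10 with equal totals (median -0.05), and none was called. Clpp, the proteolytic subunit of the matrix ClpXP protease, was at 49.2, 36.6 and 38.04 FPKM in vehicle and at 53.8, 64.7 and 66.6 FPKM in DATS tumors (log2 difference 0.57 ± 0.17, SE; limma adjusted p = 0.819). Its lowest DATS value exceeded its highest vehicle value. Grpel1, nucleotide exchange factor of mitochondrial HSP70, had 0.50. Hspa9, mortalin, the mitochondrial HSP70 itself, was the gene that went the other way, at 34.9, 31.2 and 26.9 FPKM in vehicle and at 28.0, 20.6 and 20.9 FPKM in DATS tumors (log2 difference -0.41 ± 0.18, SE; limma adjusted p = 0.819). Trap1, the mitochondrial HSP90, had 0.07. ER chaperones were lower for 7 of 10 (median -0.15), for 10 of 10 with equal totals (median -0.32) and with quantile normalization (median -0.30), and for 5 of 10 without vehicle tumor 1 (median -0.007), with Hspa5 (BiP) at 354 ± 36.7 FPKM in vehicle and 310 ± 31.7 in DATS tumors (SD, n = 3) and Dnajb9, Canx and Dnajc3 at log2 differences of -0.45, -0.22 and -0.27.

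**Figure D4:**
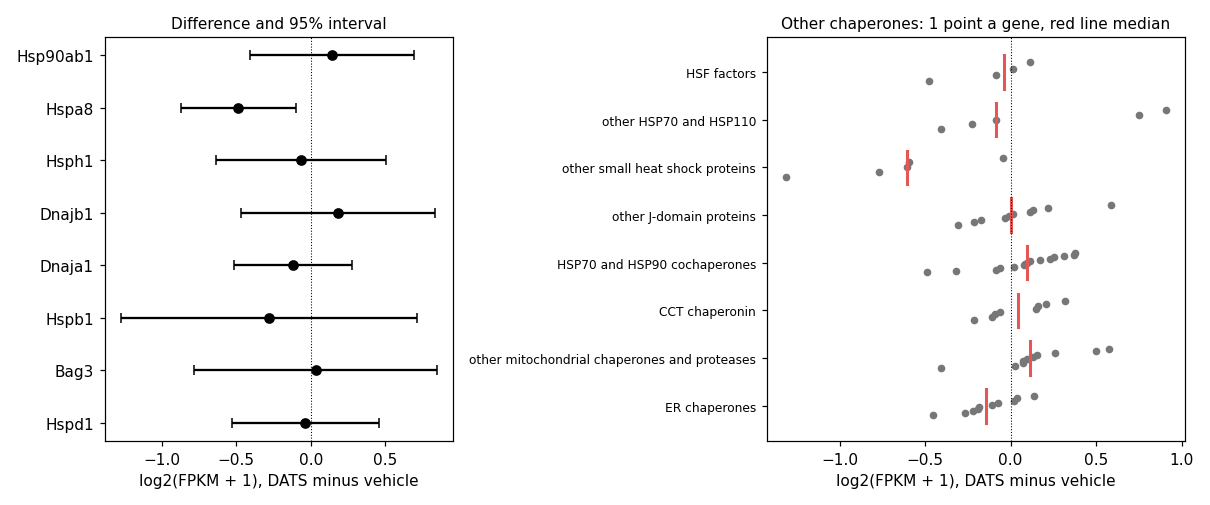
Left, log2(FPKM + 1) difference, DATS minus vehicle, with its 95% limma interval for the 8 members tested, where Hspa8 (-0.49) has the interval that leaves out 0 before any correction. Right, the same difference for each tested gene of 8 other chaperone lists, with the list median as a red line from -0.61 (small heat shock genes; -0.075 without vehicle tumor 1) to 0.11 (mitochondrial; -0.05 with equal totals).

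Among 9744 other genes averaging at least 5 FPKM, those most like the mean of the cytosolic members over the 6 tumors were Col18a1, Igf2r, Creb3, Tspan3 and Hace1, with Pearson coefficients of 0.992, 0.970, 0.970, 0.959 and 0.953. Those most like Hspd1 were Tubg1, Cycs, Tubb4b, Nup210 and Chek2, with 0.993, 0.984, 0.979, 0.977 and 0.976. These are descriptions over 6 libraries, which share their depth and scaling with the members, and each list is the top of a search over all 9744 genes. Like Hspd1, all of the genes listed for it were highest in vehicle tumor 1. Tubg1 was at 52.5 FPKM there against 34.4 to 42.9 FPKM in the other tumors. Cycs, cytochrome c of the respiratory chain, was at 24.6 FPKM there against 10.6 to 17.6 FPKM.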

How the data were processed

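RNA sequencing of 6 MNU-induced rat mammary tumors was used, 3 of vehicle and 3 of DATS animals, grouped by the treatment label. The authors deposited 1 table of FPKM per gene and tumor, per the file headers. Aligner, counting method, build and strand handling: not given in the sources used here. Libraries came from column-purified total RNA, per the labels' protocols. The members and gene lists were chosen with earlier results of these data known.

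Whole reads, within 0.01 of a whole number, and implied gene lengths were recovered for 100.0% of the 20891 genes above 0, from the value of 1 read in each tumor and the smallest whole length. The recovered reads and depth are therefore the lowest that fit. A fit is easily found for genes above 0 in few tumors. The genes averaging at least 1 FPKM were tested on log2(FPKM + 1) with limma 3.58.1 in R 4.3.3 (lmFit, eBayes with trend, two-sided; a call required a Benjamini-Hochberg p below 0.05). The fit and the recovery were tested on simulated data. There all genes shared the same dispersion and tumors did not differ in cell content, so such differences were not covered. All 10 members were named, as were, per chaperone list, the 3 tested genes of smallest p, with Hsf1, Hspa1a, Hspa1b, Hspa9, Trap1, Hspa5 and Cryab, and the 5 genes most like each member pattern. Epcam and Hspb7 were named after their values were seen. Alternatives were another pseudocount (0.1), filter, scaling (equal totals, quantile), limma-voom on recovered reads, removal of the length trend, the replicate number as a block and leaving out each tumor. Plots were drawn with matplotlib 3.10.9 and summaries made with pandas 2.3.3 and numpy 2.4.6 under Python 3.11.15.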

Additional observations from a re-analysis of the deposited data

How the results depend on the processing

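No gene was called under any of the 13 alternatives run on all genes, while the genes at an unadjusted p under 0.05 ranged from 428 (without DATS tumor 2) to 1217 (without DATS tumor 1), against 797. Equal totals moved the median of all genes to -0.16, while it was -0.0085 with quantile normalization. Of 104 recomputed log2 differences of single members 13 changed sign, and Hspa8 and Hspb1 kept theirs in all. Hspb1 kept its sign only marginally without DATS tumor 1, at -0.0021. The other filter and the replicate block could not change any of these differences, so their part of the 104 was fixed in advance. With equal totals, Hsp90ab1 was -0.036 and Bag3 -0.14, and with quantile normalization they were -0.23 and -0.052. Without vehicle tumor 1 Hspd1 was 0.17. Without vehicle tumor 2 Hsp90ab1 was -0.045 and Bag3 -0.31, and without vehicle tumor 3 Hsph1 was 0.07 and Dnaja1 0.015. Without DATS tumor 1 Hsph1 was 0.15. Without DATS tumor 2 Dnajb1 was -0.084 and Bag3 -0.11, and without DATS tumor 3 Bag3 was -0.05. Leaving out 1 tumor at a time gave ranges of -0.045 to 0.27 for Hsp90ab1, -0.23 to 0.015 for Dnaja1, -0.084 to 0.33 for Dnajb1, -0.31 to 0.25 for Bag3, -0.20 to 0.15 for Hsph1 and -0.18 to 0.17 for Hspd1. The range was -0.75 to -0.0021 for Hspb1 and -0.53 to -0.43 for Hspa8. The cause was not tested. The cytosolic minus mitochondrial difference lay between -0.23 (without vehicle tumor 1) and 0.20 (without vehicle tumor 3), against -0.04. Deviations of same-numbered tumors correlated at 0.15, -0.02 and -0.12 for numbers 1, 2 and 3, against -0.23 to 0.27 for different numbers. With 3 tumors a group, these values cannot decide whether the numbers pair tumors. With the replicate number as a block 0 genes were called. The block is balanced, so it could not change the cytosolic minus mitochondrial difference. Depth limits Hsp90aa1, at 1 to 14 reads, and Hspa8, at 92 to 196.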
